A study of Mus musculus with 12 samples.

Results

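Liver RNA from mice stored cold, at 4 °C, until 18 h after death was compared with liver RNA taken just after death (0 h). The comparison used 4 of the 12 arrays of the study: a fresh-frozen (FF) array and a formalin-fixed paraffin-embedded (FFPE) array at each time, paired by preservation. All 45037 of 45141 probe sets that are not array controls entered it, and 13073 genes were tested after a filter on low values. The animals were male BALB/c mice aged 10 weeks, and the labels give no other genotype or treatment. FF liver was placed in RNAlater, and its RNA went through a kit that labels from the 3' end of messengers. FFPE liver was held in 10% formalin for 24 h, stored as a block at room temperature for 7 d and sectioned at 10 µm, and its RNA was labelled with a whole-transcript kit for degraded RNA. Preservation and labelling kit changed together, as did time and storage temperature. The study as a whole also holds liver after 3 h at room temperature and brain under the same conditions, 1 array for each. The labels give neither the number of animals nor whether the FF and FFPE pieces of a time came from the same animal.

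After death the blood supply ends, tissue oxygen falls, and RNA is lost at rates that differ between transcripts, since messenger half-lives differ and new synthesis slows. The liver is made mostly of hepatocytes, which secrete plasma proteins such as albumin, apolipoproteins, clotting factors and acute phase proteins, and which make bile acids and inactivate drugs. Hepatocytes near the portal vein and near the central vein express different enzymes. Sinusoidal endothelial cells, Kupffer cells (the resident macrophages) and stellate cells (the vitamin A-storing pericytes) line and surround the blood channels.

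A gene was called when it passed limma's test at a Benjamini-Hochberg adjusted p under 0.05 and changed with the same sign in the FF pair and the FFPE pair. All 1893 genes under that adjusted p met the sign rule, so it changed no call. Disagreement between the pairs is part of the test's error, so the rule is no separate support. Changes are log2 differences, 18 h minus 0 h, given as the fitted value ± its standard error (SE), from the model over all 12 arrays. More genes were called lower than higher. Of 13073 genes, 1421 (10.9%) were called lower and 472 (3.61%) higher, so a list is read against these shares. After quantile normalization the counts were 1043 lower and 598 higher. By sign alone, with no test, the balance over the 45037 probe sets was the opposite: 13767 were higher in both pairs and 11796 lower in both. Among genes called lower the median fold was 1.69, the largest was 5.70 and 334 changed at least 2-fold. Among genes called higher the median fold was 1.56, the largest was 2.70 and 37 changed at least 2-fold. In the FF pair alone 359 genes (2.75%) were at least 2-fold lower and 160 (1.22%) at least 2-fold higher. In the FFPE pair alone 580 (4.44%) were at least 2-fold lower and 40 (0.306%) at least 2-fold higher. Quantile normalization moved these counts to 279 lower and 107 higher in FF, and to 419 lower and 103 higher in FFPE. Both pairs passed 2-fold the same way for 141 lower genes (1.08%) and 12 higher genes (0.0918%).

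**Figure D1:**
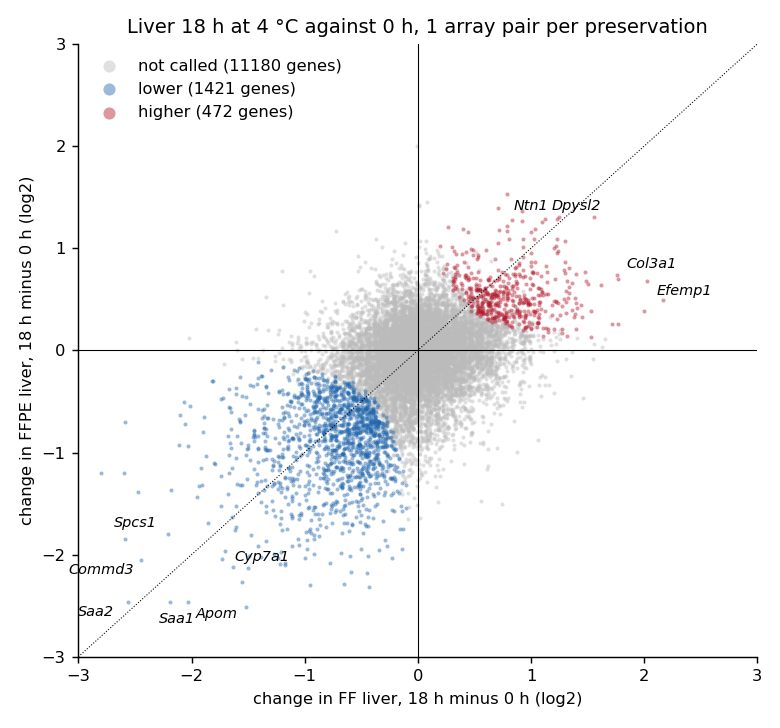
Each point is 1 of the 13073 genes tested, with its log2 change (18 h minus 0 h) in the FF pair on the horizontal axis and in the FFPE pair on the vertical axis. Blue points are the 1421 genes called lower, red points the 472 called higher, and the dotted line marks equal change. Saa2, Saa1, Commd3 and Apom lie far into the lower left, and Col3a1 and Efemp1 lie further right than up.

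The labelled tissue was borne out by its markers. The 21 hepatocyte markers tested had a median log2 level of 12.22 in FF at both times, and 12.16 and 12.03 in FFPE. None of the 21 was called by limma, and 0 had an unadjusted p under 0.05. In both liver pairs 11 of them were lower and 3 higher. Their error rests in part on brain arrays, where the median 18 h change of these genes was -0.89. Fga, for example, changed by -0.54 in FF and -0.33 in FFPE liver, with an SE of 0.28. The median SE over all genes was 0.16. The median over an array moved from 4.65 to 4.67 between the FF arrays, and from 4.80 to 4.85 between the FFPE arrays. The 3' minus 5' difference of control probe sets, which grows when RNA is broken, went from 0.03 to 1.14 for Gapdh in FF liver and from 1.04 to 1.77 in FFPE liver. For Actb it went from 1.09 to 1.90 in FF, and was -0.12 and -0.18 in FFPE. Other controls did not all move the same way. Pcx went from 5.10 to 5.36 in FF and from 2.75 to 2.18 in FFPE. Tfrc went from -0.21 to 0.08 in FF and from -0.72 to -1.12 in FFPE, and Rn18s from -0.62 to -0.81 and from 0.59 to 0.66. The part of this difference in the changes described next was not tested.

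The largest decreases included plasma proteins made by hepatocytes. Saa2 and Saa1 encode serum amyloid A, an apolipoprotein of high-density lipoprotein that the liver makes in the acute phase response. Saa2 went from a log2 intensity of 8.22 at 0 h to 5.66 at 18 h in FF and from 9.05 to 6.59 in FFPE. Saa1 went from 8.48 to 6.29 in FF and from 7.38 to 4.92 in FFPE. For either gene both arrays at 18 h lay below both arrays at 0 h. The change was -2.51 ± 0.13 for Saa2 (limma adjusted p = 2.2e-06) and -2.33 ± 0.16 for Saa1 (adjusted p = 1.5e-05). The second Saa2 probe set was at -1.04 ± 0.18 and was called too. Apom, which encodes a carrier of sphingosine 1-phosphate in high-density lipoprotein, went from 10.77 to 8.74 in FF and fell by 2.46 to reach 8.54 in FFPE. Its change was -2.25 ± 0.15 (adjusted p = 1.5e-05), and its second probe set was at -2.38 ± 0.19.

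Saa1 and Saa2 are near-identical neighbours, so their probe sets may share signal, and their promoters show how alike they are. The windows of the RefSeq table (GRCm38.p6) run from 250 bases before to 50 bases after the start site. Aligned over 300 bases, the Saa1 and Saa2 windows had 287 identical and 12 mismatched positions and 2 gap positions, an identity of 95.99% over aligned pairs. Each holds 1 match to TTGCNNAA, the palindromic core bound by C/EBP factors, which drive acute phase genes, and 10.8% of all windows in the table hold one on either strand. Such a match was in 42.9% of windows of the acute phase list. It was also in 44.4% of windows of the hepatocyte markers, of which 0 of 21 were called. The match begins at -182 in Saa1 (chr7:46742971-46743230, minus strand) and at -183 in Saa2 (chr7:46751583-46751842, plus strand). The stretches from 250 bases before to 10 bases after the start are printed 5′ to 3′, with the match in capitals.
Saa1 promoter: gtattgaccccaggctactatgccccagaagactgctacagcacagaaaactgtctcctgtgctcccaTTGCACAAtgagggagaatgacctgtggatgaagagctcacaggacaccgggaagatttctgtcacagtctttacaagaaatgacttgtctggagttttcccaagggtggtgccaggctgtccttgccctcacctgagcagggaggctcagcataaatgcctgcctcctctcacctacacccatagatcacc
Saa2 promoter: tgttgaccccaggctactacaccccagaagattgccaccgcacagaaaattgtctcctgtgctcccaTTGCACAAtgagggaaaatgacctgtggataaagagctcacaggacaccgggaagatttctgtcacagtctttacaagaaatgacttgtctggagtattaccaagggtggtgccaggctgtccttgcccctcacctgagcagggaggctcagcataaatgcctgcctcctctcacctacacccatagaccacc

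The other acute phase genes moved less, and not all in 1 direction. Of 22 acute phase genes tested, 5 were called lower and 2 higher, with a median change of -0.10. Crp, the pentraxin C-reactive protein, went from 10.78 to 10.00 in FF and from 10.22 to 9.45 in FFPE, a change of -0.78 ± 0.16 (adjusted p = 0.00643). Steap4, a metalloreductase, fell by 0.71 ± 0.17 (adjusted p = 0.0138). The 2 that rose were Fgl1, a fibrinogen-like hepatokine (0.70, adjusted p = 0.0410), and Cp, the copper carrier ceruloplasmin (0.47, adjusted p = 0.0374), both named after their values were seen. Neither was called without the FF array at 0 h.

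Genes for other secreted proteins fell in part. Of 18 apolipoprotein genes 3 fell: Apom, Lcat, which esterifies cholesterol in plasma (-0.59 ± 0.15, adjusted p = 0.0212), and Apoc2, the cofactor of lipoprotein lipase (-0.51 ± 0.16, adjusted p = 0.0480). Of 19 complement genes 5 fell, among them C4bp, an inhibitor of the pathway (10.17 to 9.35 in FF, 9.81 to 9.10 in FFPE, a change of -0.77 ± 0.14). C8g (-0.63 ± 0.17), the lectin pathway protease Masp2 (-0.60 ± 0.16) and C6 (-0.55 ± 0.14) were the next. Of 21 coagulation genes 2 (9.52%) fell, a share below the 10.9% of all genes, namely the thrombin inhibitor Serpind1 (-0.77 ± 0.19, adjusted p = 0.0180) and the factor XIII subunit F13b (-0.53 ± 0.15, adjusted p = 0.0349). Without the FFPE array at 0 h, 1 complement gene and 1 apolipoprotein gene were called lower, and 0 coagulation genes were once the FF array at 0 h was left out.

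Several of the largest decreases were enzymes. Csad, which makes the taurine precursor hypotaurine, went from 8.40 to 6.88 in FF and from 8.03 to 5.52 in FFPE, a change of -2.02 ± 0.19 (adjusted p = 0.000103). Cyp7a1, the rate-limiting enzyme of bile acid synthesis, went from 8.94 to 7.24 in FF and from 7.52 to 5.56 in FFPE, a change of -1.83 ± 0.18 (adjusted p = 0.000102). Its second probe set was at -1.72 ± 0.16. Bckdhb, a subunit of the branched-chain keto acid dehydrogenase, went from 9.90 to 8.27 in FF and from 8.19 to 6.07 in FFPE. In each of these 3 genes the FF array at 18 h lay below its own 0 h array by 1.5 or more. Gstt3, a glutathione transferase, changed by -1.89 ± 0.17 (adjusted p = 7.8e-05) and Dhrs1, a short-chain dehydrogenase, by -1.93 ± 0.20 (adjusted p = 0.000175). Dct, known as a melanin synthesis enzyme, went from 7.85 to 5.05 in FF and from 6.08 to 4.88 in FFPE (-2.00 ± 0.28). Rnase2a, a secreted ribonuclease of the eosinophil type, went from 7.81 to 5.22 in FF and from 5.63 to 3.78 in FFPE (-2.22 ± 0.17).

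The other 5 of the 15 largest decreases were Commd3, Spcs1, Mrpl15, Imp4 and Tm2d1. Commd3, a subunit of the complex that recycles receptors from endosomes, went from 9.45 to 7.00 in FF and from 8.71 to 6.66 in FFPE, a change of -2.25 ± 0.16 (adjusted p = 2.0e-05). Spcs1, a subunit of the signal peptidase that trims secreted proteins, went from 9.97 to 7.76 in FF and from 9.03 to 7.23 in FFPE, a change of -2.01 ± 0.15 (adjusted p = 2.7e-05). Mrpl15, a protein of the mitochondrial ribosome, went from 8.74 to 7.19 in FF and from 8.39 to 6.12 in FFPE, a change of -1.91 ± 0.18 (adjusted p = 0.000102). The 0 h and 18 h arrays did not overlap for Commd3, Spcs1 or Mrpl15. Imp4, which acts in ribosome assembly, changed by -1.82 ± 0.17, and Tm2d1 by -1.90 ± 0.29. Second probe sets were at -1.98 ± 0.18 for Commd3, -2.10 ± 0.21 for Spcs1 and -0.85 ± 0.15 for Tm2d1, while that of Mrpl15 was at -0.32 ± 0.14 (adjusted p over probe sets = 0.170).

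**Figure D2:**
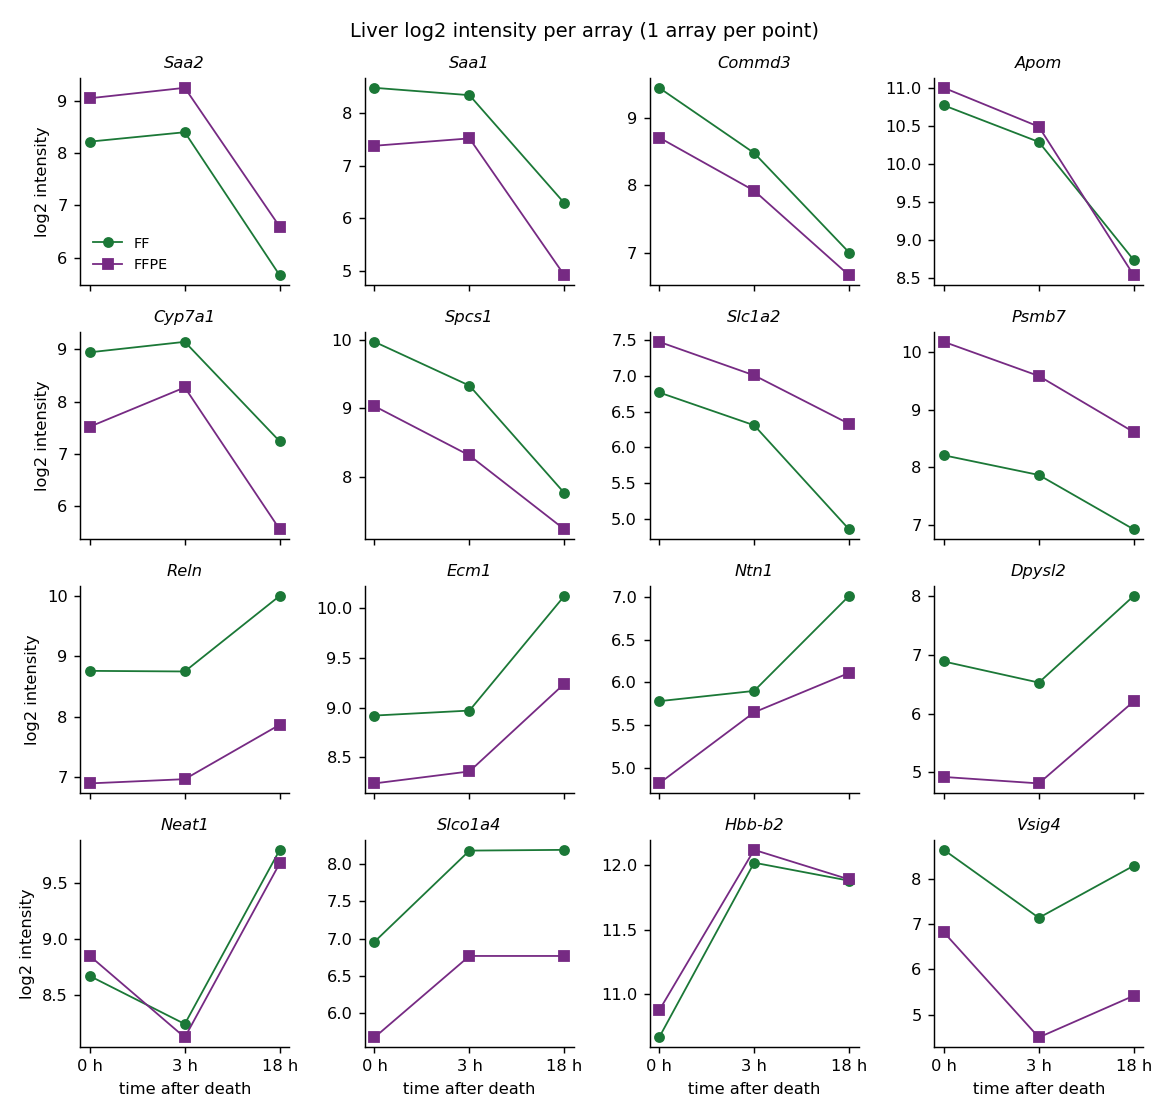
Log2 intensity of 16 genes on the 6 liver arrays at 0 h, 3 h (room temperature) and 18 h (4 °C), 1 array per point, with FF in green circles and FFPE in purple squares and a separate vertical scale for each gene. Saa2, Saa1 and Cyp7a1 are low at 18 h and not at 3 h, Commd3, Apom, Spcs1 and Psmb7 are lower at each later time, and Slco1a4 and Hbb-b2 are high at both later times.

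In the main fit, genes of the mitochondrial ribosome had the highest share called lower of the machinery lists. Of 72 mitochondrial ribosomal proteins tested, 41 (56.9%) were called lower and 0 higher, with a median change of -0.61, and 63 were lower in both pairs. Mrpl43 went from 9.02 to 7.85 in FF and from 7.76 to 5.68 in FFPE, a change of -1.63 ± 0.19 (adjusted p = 0.000231). Mrps6 went from 7.10 to 5.86 in FF and from 7.02 to 5.66 in FFPE, a change of -1.30 ± 0.14, and Mrps16 fell by 1.30 ± 0.18. Mrps6 fell by nearly equal amounts in both preservations, whereas Mrpl43 had the larger change in FFPE. Of 67 cytosolic ribosomal proteins, whose genes are among the most abundant, 19 (28.4%) were called lower and 0 higher, with a median of -0.25. Rplp0, of the ribosomal stalk, went from 10.74 to 9.78 in FF and from 9.92 to 8.64 in FFPE, a change of -1.12 ± 0.16 (adjusted p = 0.000746), and Rpl9 fell by 1.10 ± 0.17. These 2 counts rested on the FFPE array at 0 h: without it 24 mitochondrial and 3 cytosolic ribosomal proteins were called lower. Without the FF array at 18 h the proteasome had the higher share. There 27 of 39 proteasome genes and 41 of 72 mitochondrial ribosomal proteins were called lower.

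Protein destruction was represented by the proteasome and the enzymes that attach ubiquitin. Of 39 proteasome genes 20 (51.3%) were called lower and 0 higher, with a median of -0.57. Psmb7, a catalytic subunit, went from 8.21 to 6.93 in FF and from 10.17 to 8.61 in FFPE, a change of -1.42 ± 0.14 (adjusted p = 0.000107). Psmd8, of the regulatory lid, went from 10.09 to 8.80 in FF and from 9.29 to 7.96 in FFPE, a change of -1.31 ± 0.14. The core subunits Psmb4 and Psma6 changed by -1.23 ± 0.19 and -1.21 ± 0.13. Psmb7 and Psmd8 fell in both preservations, although Psmb7 read higher in FFPE and Psmd8 in FF. Of 22 ubiquitin genes 10 fell and 0 rose. Ube2a went from 9.13 to 8.70 in FF but from 7.65 to 5.33 in FFPE (-1.38 ± 0.32), and Ube2k went from 9.41 to 8.41 in FF and from 8.88 to 7.55 in FFPE (-1.17 ± 0.14). Without the FFPE array at 0 h, 12 proteasome and 4 ubiquitin genes were called lower.

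Nuclear genes for the respiratory chain fell in part. Of 33 complex I genes 13 were called lower and 1 higher, with a median of -0.14 in FF and -0.41 in FFPE. Of 39 genes of complexes II to V, 14 were called lower and 0 higher. Atp5b, the catalytic subunit of ATP synthase, went from 11.25 to 10.14 in FF and from 11.60 to 9.96 in FFPE, a change of -1.38 ± 0.15 (adjusted p = 0.000195). Ndufa7, of complex I, went from 9.88 to 9.38 in FF and from 9.37 to 8.04 in FFPE, a change of -0.92 ± 0.20 (adjusted p = 0.00975). Cox5a, of cytochrome oxidase, fell by 0.96 ± 0.14. Atp5b thus fell by more than 1 in either preservation, while the FF change of Ndufa7 was -0.50. The complex I gene that rose was Ndufa5 (0.43, adjusted p = 0.0453), named after its value was seen and not called once the FF array at 0 h was left out. Of 23 genes of mitochondrial protein import 10 fell and 0 rose, led by the inner membrane channel gene Timm17a (8.48 to 7.36 in FF, 8.70 to 7.42 in FFPE, -1.20 ± 0.15). Without the FFPE array at 0 h, 2 complex I genes, 5 of complexes II to V and 3 import genes were called lower.

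Genes for the entry of secreted proteins into the endoplasmic reticulum (ER), their folding and their transport from it fell in part. Of 28 genes of ER translocation and signal peptidase 12 were called lower and 0 higher, among them Spcs1, the oligosaccharyltransferase subunits Ostc (9.32 to 7.75 in FF, 9.43 to 8.11 in FFPE, -1.45 ± 0.14) and Dad1 (-1.28 ± 0.15), and the translocon gene Ssr4 (-1.31 ± 0.26). Of 30 ER chaperones and folding genes 10 fell and 1 rose. Sdf2l1 went from 9.0 to 7.78 in FF and from 8.74 to 7.04 in FFPE, a change of -1.46 ± 0.19, and Creld2 went from 9.62 to 8.51 in FF and from 8.91 to 7.44 in FFPE, a change of -1.29 ± 0.16. Both are known targets of the unfolded protein response. Xbp1, a transcription factor of that response, went from 10.70 to 10.36 in FF and from 9.49 to 7.54 in FFPE (-1.15 ± 0.29, adjusted p = 0.0187), and its other 3 probe sets were at -0.51, -0.03 and -1.06. Ern1, the kinase that splices Xbp1 RNA, rose by 0.44 (adjusted p = 0.0455), was named after its value was seen, and was not called once the FF array at 0 h was left out. Of 35 vesicle transport genes 7 fell and 2 rose, and Trappc4 of the TRAPP tethering complex had the largest fall (8.72 to 6.13 in FF, 7.53 to 6.83 in FFPE, -1.65 ± 0.30). Trappc4 had the larger difference in FF and Xbp1 in FFPE. Without the FFPE array at 0 h, 5 translocation and 6 chaperone genes were called lower. Leaving out the FF array at 0 h gave 4 vesicle transport genes lower and 0 higher.

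Besides Commd3, other members of the COMMD family fell. Of 10 COMMD genes 5 were called lower and 0 higher, 4 or 5 of them with any of the 4 arrays left out. Commd2 went from 7.52 to 5.57 in FF and from 7.82 to 6.38 in FFPE (-1.70 ± 0.15), and Commd6 went from 8.52 to 6.88 in FF and from 6.85 to 5.22 in FFPE (-1.64 ± 0.15). Commd6 changed by nearly the same amount in both preservations. The Commd6 promoter window holds both CCGGAAG, the core of ETS factor sites, and the site of the mitochondrial regulator NRF1, and is shown for that reason. Its stretch from 250 bases before to 10 bases after the start (chr14:101640462-101640721, minus strand, GRCm38.p6) is printed with the NRF1 match at -231 and the ETS match at -5 in capitals.
Commd6 promoter: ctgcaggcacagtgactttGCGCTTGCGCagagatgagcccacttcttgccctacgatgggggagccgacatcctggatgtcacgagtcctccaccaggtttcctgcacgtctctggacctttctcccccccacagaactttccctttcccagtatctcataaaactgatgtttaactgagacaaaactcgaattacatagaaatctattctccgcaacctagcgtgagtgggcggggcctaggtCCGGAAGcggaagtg

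Other housekeeping lists also held genes that fell, for some at no higher share than the most abundant genes, as set out below. Translation initiation factors had 9 of 25 called lower and 0 higher, with Eif6 (8.55 to 6.70 in FF, 7.73 to 6.04 in FFPE, -1.77 ± 0.15) and the start-codon factor Eif1ax (-1.37 ± 0.18) in front. Cytosolic chaperones had 8 of 28 lower and 0 higher, among them the chaperonin subunit Cct5 (-1.37 ± 0.19) and Hsp90aa1 (8.75 to 6.86 in FF, 9.91 to 9.26 in FFPE, -1.27 ± 0.22). Spliceosome genes had 8 of 38 lower, led by Snrpb (-1.24 ± 0.15), and 2 higher, the splicing regulators Tra2b (0.84, adjusted p = 0.00708) and Srsf1 (0.55, adjusted p = 0.0277), named after their values were seen. Genes of RNA polymerase II and its general factors had 5 of 20 lower, led by Taf9 (-0.80 ± 0.14), and 1 higher, the largest subunit gene Polr2a (0.89, adjusted p = 0.0265), named likewise. Of 20 vacuolar ATPase and lysosome genes 7 fell and 0 rose, such as the cysteine protease gene Ctsl (-0.65 ± 0.15). Of 16 selenoprotein genes 6 fell and 0 rose, led by Dio1, which activates thyroid hormone (8.50 to 7.28 in FF, 7.07 to 4.98 in FFPE, -1.66 ± 0.18). With the FFPE array at 0 h left out, the counts lower were 5 initiation factors, 5 chaperones, 4 spliceosome genes, 2 polymerase genes, 1 lysosome gene and 2 selenoprotein genes. Tra2b, Srsf1 and Polr2a were not called higher when the FF array at 0 h was left out.

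Another normalization also moved some counts. After quantile normalization 13 proteasome genes, 10 cytosolic ribosomal proteins, 8 complex I genes, 7 translocation genes, 4 vesicle transport genes, 3 spliceosome genes, 3 lysosome genes and 2 polymerase genes were called lower. Among liver functions 5 genes of fatty acid oxidation, 4 antioxidant genes, 3 lipid synthesis genes, 2 complement genes, 1 apolipoprotein gene and 0 coagulation genes were. Mitochondrial ribosomal proteins, at 31 of 72, and pericentral genes, at 6 of 11, moved by less than 1.5 times.

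**Figure D3:**
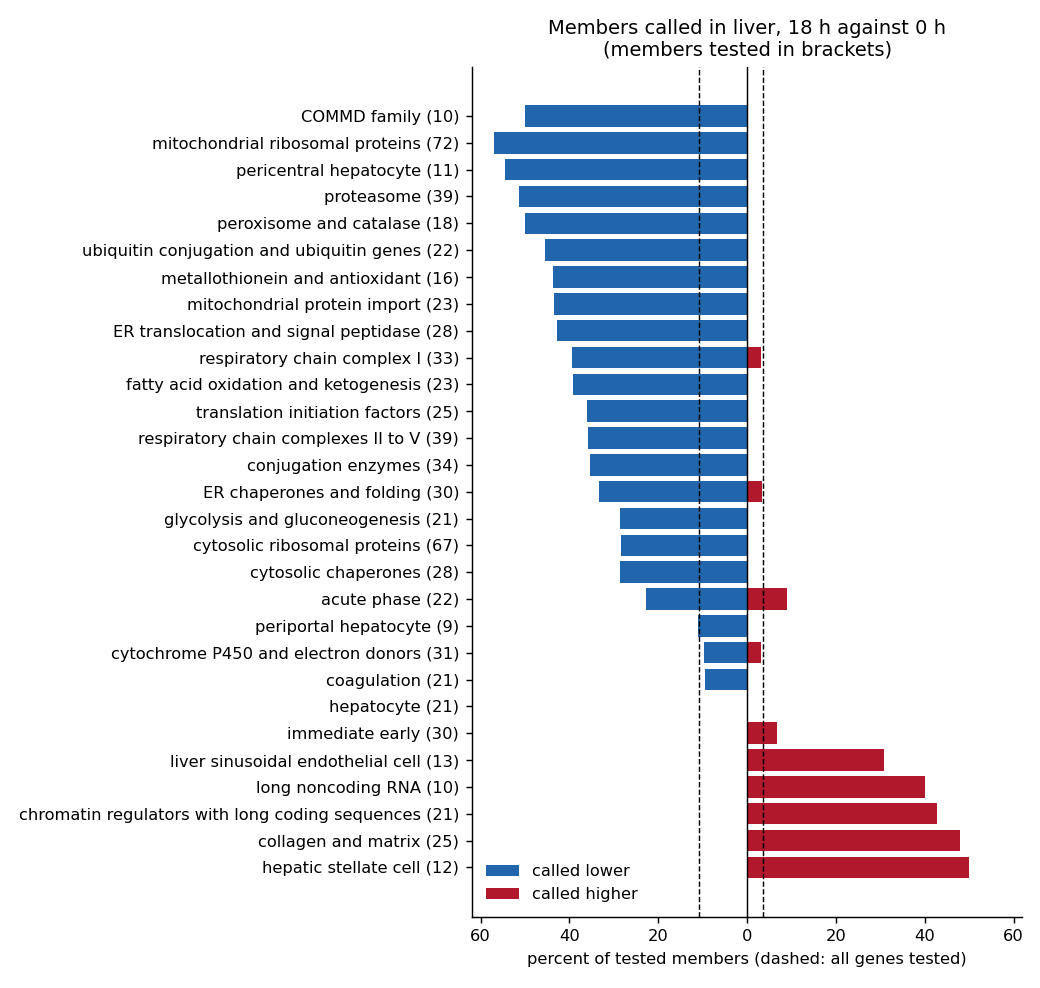
Share of the tested members of 29 gene lists called lower (blue, to the left) and higher (red, to the right) in liver at 18 h, in percent of members tested, whose number stands in brackets. Dashed lines mark the shares over all genes tested, 10.9% lower and 3.61% higher. Mitochondrial ribosomal proteins and the proteasome exceed 50% lower, no hepatocyte marker is called, and the collagen and stellate cell lists have red bars only.

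Several genes of hepatocytes near the central vein fell. Of 11 pericentral hepatocyte genes 6 were called lower and 0 higher, with a median of -0.84. Besides Cyp7a1 these were Slc1a2, a glutamate transporter (6.77 to 4.85 in FF, 7.48 to 6.33 in FFPE, -1.54 ± 0.18), Gulo, which makes vitamin C (10.17 to 9.48 in FF, 9.07 to 7.74 in FFPE, -1.01 ± 0.19), Lect2, a hepatokine (10.42 to 9.68 in FF, 9.81 to 8.63 in FFPE, -0.96 ± 0.17), Oat (-0.87) and Rhbg (-0.84). The defining enzymes Cyp2e1 and Cyp1a2 were at -0.31 and -0.33 and did not pass. Of 9 periportal genes 1 fell, Hsd17b13 of lipid droplets (-0.59 ± 0.14, adjusted p = 0.0140). The urea cycle enzymes Cps1 and Ass1 were at -0.26 and -0.18. The 5 or 6 pericentral calls held without any of the 4 arrays, and the periportal call was lost after quantile normalization or when the FF array at 0 h was left out. The difference between the 2 zones was not tested.

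Bile acid genes had 4 of 23 called lower: Cyp7a1, Cyp27a1 (10.05 to 9.35 in FF, 10.01 to 8.97 in FFPE, -0.87 ± 0.14), Hsd3b7 (-0.85 ± 0.17) and Amacr (-0.61 ± 0.16), all of the synthesis pathway. The 1 that rose was Slco1a4, an organic anion uptake transporter, which went from 6.96 to 8.19 in FF and from 5.68 to 6.77 in FFPE (1.16 ± 0.14, adjusted p = 0.000267). Conjugation enzymes, which inactivate drugs, had 12 of 34 lower and 0 higher. Gstm6 went from 8.81 to 7.54 in FF and from 9.11 to 7.12 in FFPE (-1.63 ± 0.17), and Sult1b1, a sulfotransferase, from 7.51 to 5.45 in FF and from 7.24 to 6.52 in FFPE (-1.39 ± 0.23). The cytochromes P450 and their electron donors had 3 of 31 lower, a share near that of all genes, with Cyp2c39 in front (7.09 to 5.82 in FF, 6.01 to 4.70 in FFPE, -1.29 ± 0.14), and 1 higher, Cyp2c23 (0.49, adjusted p = 0.0460), named after its value was seen and not called once the FF array at 0 h was left out. Glutathione transferases and P450s belong to families of close paralogs, so single members are uncertain. With the FFPE array at 0 h left out, 2 bile acid and 7 conjugation genes were lower, and with the FF array at 18 h left out 7 bile acid and 5 P450 genes.

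Genes of energy metabolism fell in part. Fatty acid oxidation and ketogenesis had 9 of 23 lower and 0 higher, with Hadhb (9.99 to 8.80 in FF, 9.98 to 8.94 in FFPE, -1.12 ± 0.14) and Echs1 (-1.15 ± 0.15) of the mitochondrial cycle among them. Peroxisome genes had 9 of 18 lower and 0 higher, such as the import receptor Pex7 (9.36 to 8.15 in FF, 8.46 to 7.07 in FFPE, -1.30 ± 0.14). Both preservations showed these falls. Glycolysis and gluconeogenesis had 6 of 21 lower and 0 higher, with Pgk1 (10.15 to 9.0 in FF, 10.30 to 8.80 in FFPE, -1.33 ± 0.14), Tpi1 (-1.08 ± 0.16) and Ldha (-0.72 ± 0.13). The tricarboxylic acid cycle had 4 of 20 lower, such as Idh2 (-0.76 ± 0.14). Of 22 hypoxia inducible genes, which cells raise when oxygen is short, 5 fell and 0 rose, among them Pfkfb3 (7.70 to 6.78 in FF, 6.71 to 5.18 in FFPE, -1.23 ± 0.16), Egln3 (-0.88 ± 0.17) and Hif1a (-0.72 ± 0.17). Lipid synthesis genes moved both ways. Of 26 cholesterol and fatty acid synthesis genes 7 fell, such as Fdps (-0.99 ± 0.18), Msmo1 (-0.96 ± 0.14) and Me1 (-1.09 ± 0.16), and 3 rose, Fasn (0.94, adjusted p = 0.00119), Acaca (0.77, adjusted p = 0.00382) and Insig1 (0.48, adjusted p = 0.0453), named after their values were seen. With the FFPE array at 0 h left out, 2 tricarboxylic acid cycle, 2 hypoxia and 3 lipid synthesis genes were lower, and with the FF array at 0 h left out 4 peroxisome genes.

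The genes that rose most had unlike functions. Gnl2, a nucleolar GTPase, went from 6.70 to 7.95 in FF and from 6.70 to 8.01 in FFPE (1.28 ± 0.14, adjusted p = 0.000180). Dpysl2, a microtubule-binding protein known from axon growth, went from 6.89 to 8.01 in FF and from 4.92 to 6.21 in FFPE (1.21 ± 0.14, adjusted p = 0.000221). Prpf4b, a splicing kinase, went from 7.88 to 8.98 in FF and from 6.03 to 7.29 in FFPE (1.18 ± 0.14, adjusted p = 0.000303). On the probe sets used, Gnl2, Dpysl2 and Prpf4b rose by like amounts in both preservations. Bcl2l11, a cell death activator, went from 6.87 to 7.79 in FF and from 4.74 to 6.10 in FFPE (1.14 ± 0.17, adjusted p = 0.000952). Shroom3, an actin regulator, rose by 1.19 ± 0.16, and Ms4a4d, a membrane protein, by 1.16 ± 0.21. Trp53bp1, a DNA repair gene, went from 4.29 to 6.29 in FF but from 7.25 to 7.64 in FFPE (1.20 ± 0.27), so that its arrays at 0 h and 18 h overlapped.

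Other probe sets of the same gene moved the same way only in part. Of 466 other probe sets of genes called higher, 15.7% were called higher too and 69.3% had the same sign. Of 845 other probe sets of genes called lower, 29.7% were called lower too and 69.8% had the same sign. The opposite call was made for 16 and 17 of them. Among genes named here it was made for 1 other probe set each of Hadhb (0.90), Msmo1 (0.79), Ssr4 (0.54) and Masp2 (0.50), which were called higher while the gene was called lower. Some uncalled other probe sets of genes called lower also went up, such as those of Ostc (0.60), Idh2 (0.455), Egln3 (0.27) and Rpl9 (0.23). Those of Pfkfb3 and Eif6 were at 0.01 and -0.03. Other probe sets of Ntn1, Shroom3 and Trp53bp1 had changes between -0.28 and 0.01, and that of Bcl2l11 was at 0.19, none of them called. Those of Gnl2 were at 0.425 and 0.415 and that of Dpysl2 at 0.255, also not called. Those of Prpf4b ran from -0.125 to 0.69, and only that at 0.69 was called. With all probe sets of a gene averaged, Ntn1 (0.49, adjusted p = 0.0572), Bcl2l11 (0.33, adjusted p = 0.0607), Shroom3 (0.23, adjusted p = 0.158) and Trp53bp1 (0.37, adjusted p = 0.179) were no longer called. Of the 15 largest increases, 1 was listed only under a predicted-gene identifier and is not named.

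Several collagen and matrix genes rose. Of 25 collagen and matrix genes 12 (48.0%) were called higher and 0 lower, with a median of 0.64, and 21 were higher in both pairs. Col3a1, a fibrillar collagen, went from 6.62 to 8.38 in FF and from 5.94 to 6.68 in FFPE (1.25 ± 0.20, adjusted p = 0.00164). Efemp1, an elastic fibre protein, went from 5.94 to 7.97 in FF and from 4.24 to 4.92 in FFPE (1.35 ± 0.25), and Igfbp3, a binding protein of insulin-like growth factor, from 5.57 to 7.74 in FF and from 4.20 to 4.69 in FFPE (1.33 ± 0.30). Their FF changes were 1.76, 2.03 and 2.17, and their FFPE changes 0.74, 0.68 and 0.49. Ntn1, a guidance factor of the laminin superfamily, went from 5.78 to 7.01 in FF and from 4.82 to 6.11 in FFPE (1.26 ± 0.19, adjusted p = 0.00116), a change of 1.23 on FF arrays and 1.29 on FFPE arrays. Outside the list, Gsn, the actin-severing protein gelsolin, rose by 1.24 ± 0.24 and Lhfp by 1.13 ± 0.22. The list's count depended on single arrays. Leaving out the FF array at 0 h gave 4, where Efemp1 (adjusted p = 0.0623) and Igfbp3 (adjusted p = 0.163) were lost, and leaving out the FFPE array at 18 h gave 20.

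Some markers of stellate cells, which make matrix, rose as well. Of 12 hepatic stellate cell genes 6 were called higher and 0 lower, and the list's median level on the FF arrays went from 5.46 to 6.36 and on the FFPE arrays from 5.69 to 6.12. Reln, a secreted glycoprotein, went from 8.76 to 10.00 in FF and from 6.90 to 7.87 in FFPE (1.11 ± 0.15, adjusted p = 0.000519). Ecm1, a matrix protein of stellate cells, went from 8.92 to 10.12 in FF and from 8.24 to 9.24 in FFPE (1.10 ± 0.14, adjusted p = 0.000426). Both genes rose by about 1 log2 unit in either preservation. Colec11, a lectin, rose by 1.09 ± 0.24, Bmp5 by 0.85 ± 0.20, Dcn by 0.72 and Lrat, the vitamin A-storing enzyme, by 0.58. Dcn is on the matrix list as well. Desmin (Des) and Pdgfrb, which define the lineage, were at 0.07 and 0.18 and did not pass. Of 13 liver sinusoidal endothelial cell genes 4 rose and 0 fell, namely Bmp2 (7.70 to 8.79 in FF, 5.82 to 6.42 in FFPE, 0.85 ± 0.17), the scavenger receptor Stab1 (0.59 ± 0.18), Fcgr2b (0.48 ± 0.14) and the growth factor receptor Kdr (0.47 ± 0.14). That list had 0 calls when either FF array was left out and 1 or 2 when a 3 h or brain array was, and the stellate list had 3 to 7 with any of the 4 arrays left out. In bulk tissue, more cells of a type and more RNA per cell cannot be told apart, nor can either be told from less RNA of other cells, since arrays measure relative levels.

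Some Kupffer cell genes fell. Of 12 tested, 3 passed as lower and 0 as higher, namely Vsig4, a complement receptor (8.64 to 8.29 in FF, 6.82 to 5.42 in FFPE, -0.88 ± 0.21), C1qc (7.64 to 7.23 in FF, 7.11 to 6.03 in FFPE, -0.75 ± 0.18) and C1qa (-0.73 ± 0.21). The list's median level on the FF arrays was 7.85 at 0 h and 7.44 at 18 h, and on the FFPE arrays 6.52 and 5.79. For Vsig4 and C1qc the FFPE arrays differed by more than 1 and the FF arrays by less than 0.5. The defining genes Clec4f and Adgre1 were at -0.40 and -0.19 and did not pass, and the list had 0 calls when either FFPE array was left out. Of 4 erythroid genes 2 rose, the haemoglobin genes Hbb-b2 (10.66 to 11.88 in FF, 10.87 to 11.89 in FFPE, 1.12 ± 0.13) and Hba-a1 (11.33 to 12.25 in FF, 9.66 to 10.93 in FFPE, 1.10 ± 0.20), while the near-identical Hba-a2 was at -0.55 and Alas2, the haem enzyme of red cell precursors, at -0.30. Which haemoglobin gene gave the signal is uncertain, and 1 of the 2 calls remained when the FFPE array at 0 h was left out. Cela1, the 1 of 4 acinar genes called, fell by 1.48 ± 0.16 from 9.48 and 8.86 at 0 h, while the acinar genes Cpa1 and Ctrb1 were at 0.03 and 0.06. Lists of portal fibroblasts (7 genes), cholangiocytes (4), and T and natural killer cells (6) had 0 calls by limma, with 2, 0 and 1 genes at an unadjusted p under 0.05. Lists of smooth muscle (4), mesothelial cells (4), B cells (5), neutrophils (6) and adipocytes (2) had 1 gene higher each, and 0 when the FF array at 0 h was left out. The mesothelial call was also lost after quantile normalization, and the B cell and adipocyte calls when probe sets were averaged.

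**Figure D4:**
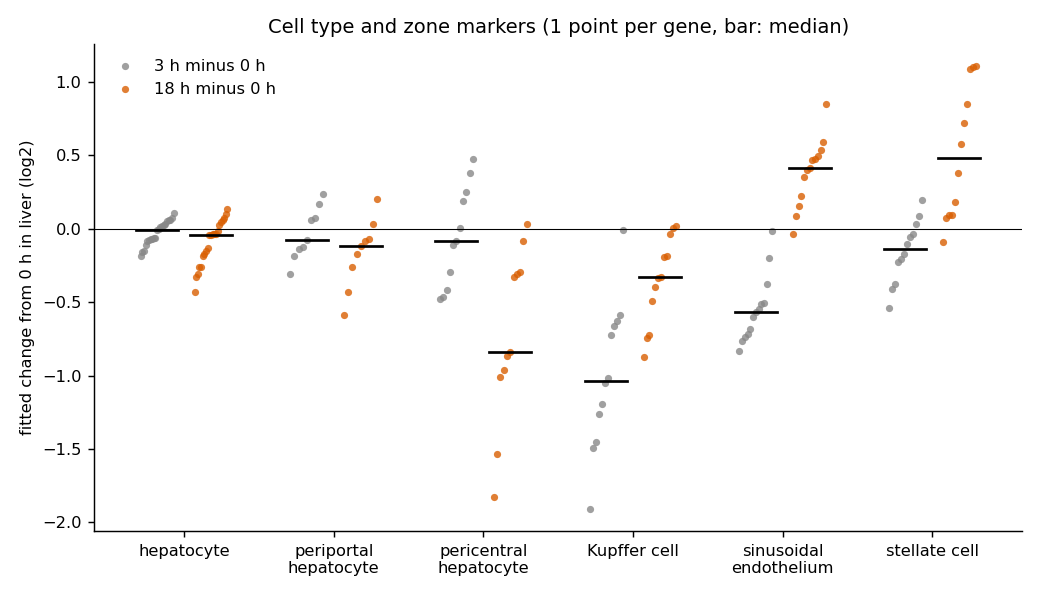
Fitted log2 change from 0 h in liver for each tested marker of 6 cell types or zones, at 3 h (grey) and 18 h (orange), with black bars at the medians. Orange points of the pericentral list reach below -1.5, those of the stellate cell list reach above 1, hepatocyte markers stay between -0.44 and 0.13, and the Kupffer cell list is lower at 3 h than at 18 h. Both series of points share the 0 h arrays.

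Chromatin regulators and nuclear noncoding RNAs rose in part. Of 21 chromatin regulators with long coding sequences 9 (42.9%) were called higher and 0 lower, with a median of 0.76 in FF and 0.16 in FFPE. Kmt2d, a histone methyltransferase, went from 6.28 to 7.76 in FF and from 6.92 to 7.69 in FFPE (1.13 ± 0.18, adjusted p = 0.00149), and Chd7, a nucleosome remodeller, from 5.26 to 6.60 in FF and from 5.54 to 6.35 in FFPE (1.08 ± 0.19). Kmt2e and Kmt2c rose by 0.81 ± 0.20 and 0.74 ± 0.16. Leaving out the FF array at 0 h gave 2 such genes, and averaging probe sets gave 4. Of 10 long noncoding RNAs 4 rose and 0 fell. Neat1, the scaffold of paraspeckles, went from 8.67 to 9.80 in FF and from 8.85 to 9.68 in FFPE (0.98 ± 0.15, adjusted p = 0.00102). Gas5 (0.73 ± 0.19), Malat1 of nuclear speckles (0.60 ± 0.15) and Kcnq1ot1 (0.59 ± 0.16) were the others, and 1 of the 4 was called without the FF array at 0 h.

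Genes of stress and signalling mostly did not pass. Of 30 immediate early genes, which cells switch on within minutes of a stimulus, 2 rose and 0 fell, Ccn2 (6.91 to 7.95 in FF, 5.72 to 6.59 in FFPE, 0.96 ± 0.15, adjusted p = 0.00165) and Egr1 (0.61 ± 0.18, adjusted p = 0.0375). Of 16 interferon and inflammation genes 0 were called in limma, 2 had an unadjusted p under 0.05, and the smallest adjusted p was that of the adhesion receptor gene Icam1 (0.50 ± 0.19, adjusted p = 0.108). Of 19 clock genes the output repressor Nfil3 fell (-0.67 ± 0.15, adjusted p = 0.00946) and Per2 rose (1.09, adjusted p = 0.000595), the latter named after its value was seen. The fall of Nfil3 was not called without the FFPE array at 0 h, and 5 clock genes were called higher after quantile normalization or with the FFPE array at 18 h left out. Socs2, which growth hormone induces, went from 7.63 to 5.95 in FF and from 5.63 to 4.22 in FFPE (-1.55 ± 0.14, adjusted p = 9.1e-05). Of 16 genes of the growth hormone and IGF axis 4 fell, Socs2 among them, and 1 rose, Igfbp3, already described beside the matrix genes. The list's median change was 0.0025. In both pairs 6 of the 16 were lower and 6 higher. Of 16 metallothionein and antioxidant genes 7 fell and 0 rose, with Mt1 (8.31 to 7.92 in FF, 5.91 to 4.48 in FFPE, -0.91 ± 0.21) and the regulator Nfe2l2 (-0.83 ± 0.16) among them. Cirbp, a cold-inducible RNA-binding protein, went from 7.09 to 6.10 in FF and from 7.01 to 5.55 in FFPE (-1.23 ± 0.16, adjusted p = 0.000464). It was the only gene called of 4 cold-inducible RNA-binding genes tested. Their median change was 0.19, and 2 of the 4 were higher in both pairs. Of 22 apoptosis genes Casp6 (-0.82 ± 0.18), Mcl1 (-0.71 ± 0.15) and Cycs (-0.62 ± 0.14) fell beside the rise of Bcl2l11. This share of 13.6% lower was near the 10.9% of all genes, and the list's median change was 0.015. Other probe sets of Cycs were at 0.09 and -0.05, and those of Mcl1 at -0.315 and -0.51, none of them called. With the FFPE array at 0 h left out, 1 antioxidant gene and 2 genes of the growth hormone axis were lower, and with the FF array at 0 h left out 1 apoptosis gene. Leaving out the FF array at 18 h kept 1 immediate early gene.

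Liver at 18 h in the cold was set directly against liver at 3 h at room temperature, 2 arrays against 2. In this test 991 genes (7.58%) were lower and 361 (2.76%) higher at 18 h. Saa2 differed between 18 h and 3 h by -2.70, Rnase2a by -2.41, Saa1 by -2.33 and Cyp7a1 by -2.31 (adjusted p of 9.2e-07 to 2.7e-05), and their changes from 0 h to 3 h were 0.19, 0.19, -0.00 and 0.48. These 4 genes were thus lower in the cold livers than at either earlier time, in tests that share the 18 h arrays. Bcl6, a transcriptional repressor, had FF levels of 7.41, 8.59 and 6.55 at 0, 3 and 18 h, and FFPE levels of 6.46, 8.19 and 5.21, high at 3 h and lowest at 18 h in either preservation. The other Bcl6 probe set was not called against 0 h (-0.52, limma adjusted p over probe sets = 0.216). Between 0 h and 18 h it went from 5.01 to 5.13 in FF and from 7.42 to 6.26 in FFPE. Colec11 (1.63), the secreted adhesion protein gene Tgfbi (1.60), Neat1 (1.56), Dpysl2 (1.44) and the hepatocyte factor Onecut1 (1.44) were the most raised from 3 h to 18 h. Onecut1 had FF levels of 7.61, 6.60 and 8.34, FFPE levels of 7.82, 6.64 and 7.77, and was not called against 0 h (0.34, adjusted p = 0.258), while its other probe set was called lower (-0.68, adjusted p over probe sets = 0.0222). The count of 1352 genes rested on the 3 h arrays: dropping the FFPE one gave 304 and dropping the FF one 367.

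Cell type lists differed between the 2 postmortem times. Of 12 Kupffer cell genes 7 were called lower at 3 h against 0 h, where 0.168% of all genes were lower and 0.0765% higher, and 8 of the 12 were higher at 18 h than at 3 h, in tests that share the 3 h arrays. Vsig4 had FF levels of 8.64, 7.14 and 8.29 at 0, 3 and 18 h, and FFPE levels of 6.82, 4.50 and 5.42. Of the sinusoidal endothelial list 11 of 13 genes were higher at 18 h than at 3 h, of the stellate list 7 of 12, and of the matrix list 12 of 25, with none lower. Of the mitochondrial ribosomal proteins 33 of 72 were lower at 18 h than at 3 h, and of the proteasome 13 of 39. Genes that did not pass this test included Slco1a4 (0.01, adjusted p = 0.988), Hbb-b2 (-0.19, adjusted p = 0.457) and Cirbp (0.04, adjusted p = 0.940), whose values at 3 h and 18 h lay close together. Temperature differed with time, so the parts of the 2 cannot be told apart.

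The 18 h change in liver was compared with that in brain by the interaction term of the same model. In this test 518 genes (3.96%) had a lower and 68 (0.52%) a higher change in liver, and 514 of the 1421 genes called lower in liver (36.2%) and 58 of the 472 called higher were among them. All 15 of the largest decreases passed, with brain changes between -0.26 and 0.24. Genes called in liver were picked by a liver change that also enters this test, so their passing is no separate support. Some had little room to fall in brain. At 0 h Saa2 read 3.40 in FF and 3.79 in FFPE brain, and Rnase2a 3.52 and 3.38, below the array medians of 4.68 and 4.88. Others lay above them, such as Spcs1 at 10.06 and 7.22. Of the mitochondrial ribosomal proteins 21 of 72 passed with a lower change in liver, of the proteasome 11 of 39, and of the COMMD family 4 of 10. In the matrix list 5 of 25 passed with a higher change in liver. Brain had its own very large differences at 18 h (Ttr 4.90, Mup3 -3.66), which set the extremes of this test. The count of 586 genes moved widely with the brain arrays, to between 48 and 113 without any 1 of the 4 brain arrays at 0 h and 18 h.

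No gene passed the test of a different 18 h change in FF than in FFPE liver (0.0%, limma), while 2470 had an unadjusted p under 0.05 and the smallest adjusted p was 0.0540. When probe sets were tested singly, 200 passed, and with a trend of spread over level 120 genes did. This test has only 2 residual degrees of freedom, both from brain arrays, so that its error is that of brain. It does not show the preservations to act alike. The median change was -0.68 in FF and -0.84 in FFPE among genes called lower, and 0.77 in FF and 0.52 in FFPE among genes called higher.

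Decreases were called mainly among transcripts with high values at 0 h. Genes were split into 5 equal groups by mean level at 0 h. The same 0 h arrays enter the change, so a gene read too high at 0 h tends to show a fall. The lowest group ran from 2.925 to 4.84, around the 0 h array medians of 4.65 (FF) and 4.80 (FFPE), with little room for a fall. The share called lower was 0.115% in the lowest group, 1.61%, 5.93% and 18.1% in the next 3, and 28.6% in the highest. The shares called higher were 2.10%, 3.21%, 4.24%, 5.51% and 2.98%. The median change of the highest group was -0.10 in FF and -0.41 in FFPE, and 0.02 in brain. Genes of the mitochondrial ribosome and the proteasome lie in the upper part of this range, with median levels of 8.53 and 9.30 in FF at 0 h, so their shares of 56.9% and 51.3% are also to be read against 28.6%. Cytosolic ribosomal proteins, with 28.4%, were at the share of the highest group, and hepatocyte markers, with 0 of 21, were more abundant still. Their median level of 12.22 in FF at 0 h is near the highest value on any array, 13.44. Whether a fall registers fully at such levels was not tested. The part of abundance in these counts was not tested.

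**Figure D5:**
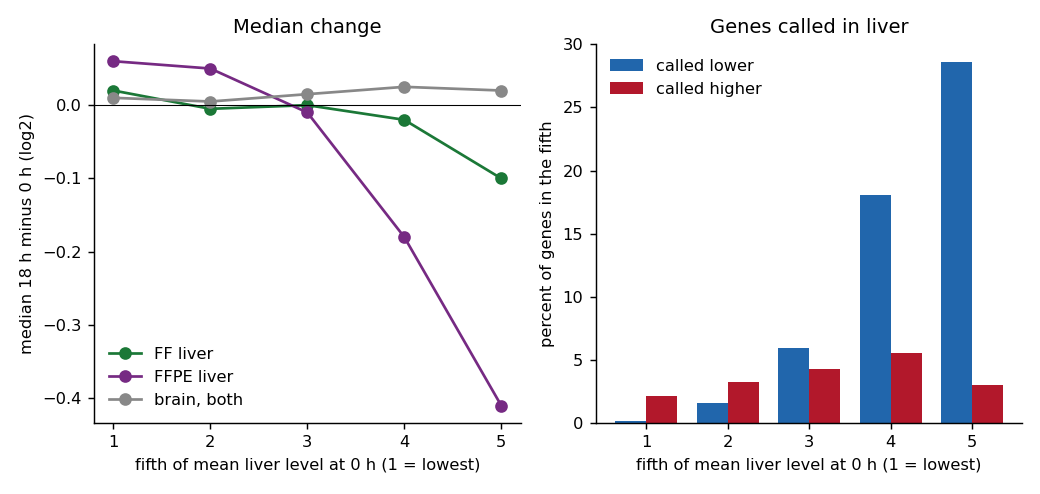
Left, median log2 change (18 h minus 0 h) of genes in 5 groups of mean liver level at 0 h, for FF liver (green), FFPE liver (purple) and brain (grey, fitted over both preservations). Right, percent of genes in each group called lower (blue) and higher (red) in liver. The FFPE median reaches -0.41 and the share called lower 28.6% in the highest group.

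Promoter windows were matched to 81.5% of genes called lower, 81.1% of genes called higher and 80.02% of the others. CCGGAAG, searched on both strands, was in 21.0% of windows of genes called lower, 14.3% of those called higher, 13.9% of those not called and 8.86% of all windows in the table. Within the upper 2 groups of level the shares were 20.9% for genes called lower and 18.6% for genes not called. The NRF1 site was in 12.3% of windows of genes called lower, 9.78% of those called higher and 7.68% of those not called, and within the upper 2 groups in 12.4% of those called lower and 10.6% of those not called. For genes called higher in the upper 2 groups the shares were 13.8% for CCGGAAG and 11.7% for the NRF1 site. Among abundant genes the gap between genes called lower and genes not called was thus smaller for both motifs, while the gap in CCGGAAG between genes called lower and higher was not. Median GC content was 59.7% for genes called lower, 61.3% for genes called higher and 59.7% for genes not called. These matches describe the letters of the windows and carry no test.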

How the data were processed

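The authors deposited log2 intensities for each probe set. The submitters' processing notes name RMA and Affymetrix's Expression Console software, without a version. RMA corrects background, brings arrays to a common distribution and summarises probes. Whether all 12 arrays went through 1 run is not given in the sources used here. Arrays have no depth, and their number limits the precision.

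Symbols came from the platform table, and a comparison with RefSeq through gene identifiers changed 0 of them. Of 45037 probe sets that are not controls, 28898 had 1 gene, 551 several and 15588 none. For a gene with several probe sets, the brightest on average over the 12 arrays stood for it (17097 genes), and genes at or above the array median on at least 3 arrays were tested (13073). The model, fitted with limma 3.58.1 in R 4.3.3, held 4 means (tissue by preservation) and the 3 h and 18 h change of each tissue, with 4 residual degrees of freedom. The error of a liver change therefore rests in part on brain arrays. P-values were two-sided and adjusted by Benjamini-Hochberg over the 13073 genes. The difference between FF and FFPE changes was fitted with 2 residual degrees of freedom, both from brain arrays. Its p-values set liver differences against the disagreement among brain arrays. Each condition had 1 array, so p-values of the other tests measure how far arrays and preservations disagree. No p-value measures the spread between animals.

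The comparison, the 60 gene lists and the tests were chosen with earlier results of these data known. Named genes were the 15 largest changes each way among called genes and, from each list, up to 4 called members with the largest change in the list's main direction, or up to 3 members of smallest p where none was called. The 5 largest each way were named for liver against brain and for 18 h against 3 h. Others are said to have been named after their values were seen, or are list markers given as values.

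The model was tested on simulated data in which 200 of 13073 genes were changed. At 2-fold the main test recovered 70.5% of them and the FF minus FFPE test 0%. At 1.5-fold either test recovered 0%. Far fewer genes were changed there than the 1893 called in the data, and the Benjamini-Hochberg cutoff is stricter when fewer genes change. These rates therefore do not carry over to the data, where Kdr was called at 1.38-fold. A gene that was not called may still have changed. Alternatives were quantile normalization, centring, other filters, averaged probe sets, every probe set alone, robust and trended variances, fewer arrays, and leaving out each array. Where a liver array at 0 h or 18 h was left out, the sign rule used only the pair that remained. A planned comparison of protein lengths was not run, because protein sequences were not used here. Promoter windows of RefSeq (GRCm38.p6) were searched on both strands with Python 3.11.15.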

Additional observations from a re-analysis of the deposited data

Results flagged for a closer look

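Each result here was picked out because its 18 h change differed between liver and brain by the interaction test (limma adjusted p under 0.05), and each value is the liver change minus the brain change on the log2 scale. Among the 15 largest decreases in liver the difference was -2.42 for Saa2, -2.43 for Saa1, -2.00 for Commd3, -2.01 for Apom, -2.24 for Rnase2a, -2.02 for Csad, -1.82 for Spcs1, -2.24 for Dct, -2.11 for Dhrs1, -1.90 for Mrpl15, -1.88 for Tm2d1, -2.07 for Gstt3, -1.85 for Bckdhb, -1.80 for Cyp7a1 and -2.03 for Imp4. Their adjusted p-values ran from 0.000104 to 0.0244. The largest decreases and increases were picked by their liver change, which is part of this difference, so passing is no separate support.

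Among the named largest increases it was 1.11 for Gnl2, 1.49 for Ntn1, 1.23 for Col3a1, 1.22 for Dpysl2, 0.91 for Shroom3, 1.12 for Prpf4b, 1.08 for Slco1a4 and 1.07 for Bcl2l11. Efemp1, Igfbp3, Gsn, Trp53bp1, Ms4a4d and Lhfp did not pass this test.

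The extremes of the test were set in part by brain. Ttr differed by -4.93 and Mup3 by 3.62, Serpina1b by 2.20, Fabp1 by 2.10 and Apoa1 by 1.84, and in liver these 5 genes changed by 0.10 or less in size. Myh9, a nonmuscle myosin gene, differed by 1.56, with 0.98 in liver and -0.58 in brain.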

How the results depend on the processing

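Against 1893 genes called at 18 h, 3896 probe sets passed when each was tested alone (1299 higher, 2597 lower), 994 genes with the 6 liver arrays alone (166 higher, 828 lower) and 209 with only the 4 arrays compared (16 higher, 193 lower), where 1 residual degree of freedom remains. Leaving out each array gave 1115 to 1905 genes, with 151 to 761 higher and 792 to 1585 lower. Quantile normalization gave 1641. The FF minus FFPE test gave 200 probe sets alone and 120 genes with a trended variance, against 0. The liver minus brain test gave 330 after quantile normalization, 1253 probe sets alone and 48 to 1152 with an array left out, against 586. The 18 h against 3 h test gave 2642 probe sets alone, 417 with the 6 liver arrays and 304 to 1673 with an array left out, against 1352. At 1.5-fold the FF pair had 2171 genes, the FFPE pair 2100 and both 737. Fewer arrays leave fewer degrees of freedom, and testing each probe set counts more features. For the other moves the cause was not tested. Of 188 named called genes, 57 were called under every alternative run, and none changed sign.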
